A study of Mus musculus with 6 samples.

Results

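Heat shock proteins and their DnaJ co-chaperones were examined in brown adipose tissue that had lost Bscl2 in brown adipocytes. The 61 genes described here were taken from the 12966 listed in the expression table. They are the listed genes whose symbol starts with Hsp or Dnaj, together with Hsf1 and Hsf2. Hspg2, which encodes the matrix protein perlecan, was left out, as were 6 chaperone genes of the endoplasmic reticulum (ER), namely Hspa5, Hsp90b1, Dnajb9, Dnajb11, Dnajc3 and Dnajc10. Of the 61, 56 averaged 1 FPKM or more across the libraries and entered the test. FPKM gives sequenced fragments per length of transcript and per size of the library, so levels can be compared between genes.

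The tissue came from 10 week old male C57BL/6J mice. Control animals (Ctrl, 3 libraries) were Bscl2f/f, with loxP sites flanking part of Bscl2, the gene of the ER protein seipin, which acts in lipid droplet formation. Knockout animals (BKO, 3 libraries) were Bscl2f/f Ucp1Cre, in which the promoter of Ucp1 drives Cre recombinase in brown adipocytes. The other cells of the tissue keep the gene, and Ctrl mice carried no Cre, so an effect of the transgene and loss of Bscl2 cannot be told apart. The labels do not say whether each library was a separate animal, so the p-values reflect only how these samples vary, and that variation may be technical. In whole tissue, fewer cells of a type and less RNA per cell cannot be told apart.

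Bscl2 stood at 115.6, 104.1 and 106.5 FPKM in the Ctrl libraries, numbers 1 to 3 in order, and at 16.5, 16.9 and 18.9 FPKM in the BKO libraries. Values are given in that order throughout. In log2(FPKM + 1) it fell by 2.57 with an SE of 0.0788 (adjusted p = 3.95e-05, limma with Benjamini-Hochberg adjustment), the direction the labels give. An exact permutation test, two-sided, gave p = 0.1, and 3 libraries against 3 can give no smaller value. Ucp1, the uncoupling protein that defines brown adipocytes, ranged from 2484 to 3498 FPKM over the 6 libraries. Skeletal muscle markers differed between libraries rather than between groups, with a summed level of 165.0 to 769.9 FPKM in Ctrl and 215.0 to 533.8 FPKM in BKO over 15 listed genes, of which Tnni1 was listed at 0 in Ctrl-3. Macrophage markers separated the groups, at 63.6 to 103.5 FPKM in Ctrl and 177.2 to 220.7 FPKM in BKO summed over 15 listed genes, with none at 0. BKO-3 had the highest sum of FPKM (2808874, against 1119228 to 1617963 in the other libraries) and held no value between 0 and 0.486 FPKM, so a gene below that level in BKO-3 may not have been listed. Read depth is not known from FPKM.

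Chaperones bind unfolded or partly folded proteins and keep them from aggregating. HSP70 proteins hold and release clients in a cycle driven by ATP, J proteins (the Dnaj genes) bring clients to HSP70 and stimulate its ATPase, HSP90 completes the folding of many signalling proteins, the chaperonin HSP60 with its lid HSP10 folds proteins inside mitochondria, and small heat shock proteins hold unfolded clients without ATP. Heat shock factor 1 (Hsf1) trimerizes under stress and binds heat shock elements, repeats of the bases GAA and TTC in the promoters of inducible chaperone genes. Brown adipocytes are packed with mitochondria, whose imported proteins are folded by the mitochondrial members of these families.

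The genes spanned a wide range of levels, and the most abundant were constitutive and mitochondrial chaperones. A mean of at least 100 FPKM was reached by 6 genes, 26 lay from 10 to below 100 FPKM, 24 from 1 to below 10 FPKM and 5 below 1 FPKM. The highest was Hspa9, the HSP70 of the mitochondrial matrix, at 355, 373 and 397 FPKM in Ctrl and 403, 425 and 358 FPKM in BKO. Hsp90ab1, the constitutive cytosolic HSP90, followed at 329, 340.1 and 371 FPKM in Ctrl and 388, 336 and 456 FPKM in BKO. The ranges of Hspa9 and Hsp90ab1 overlapped, so their order is not resolved by the spread over libraries. Next came Hspe1 (HSP10) at 253 to 331 FPKM, Dnajc15, a J protein of the mitochondrial import motor, at 253 to 294 FPKM, Hspd1 (HSP60) at 227 to 269 FPKM and Hspa8, the constitutive cytosolic HSP70, at 185 to 297 FPKM, again with overlapping ranges. These 6 genes held 66.4% of the summed FPKM of the 61, and 5 of the 10 most abundant genes encode mitochondrial proteins. At the other end, the strictly inducible HSP70 genes Hspa1a and Hspa1b stood at 0.181 to 1.23 and 0.419 to 2.70 FPKM. Hspa1a and Hspa1b are near-identical copies, so their reads may have been split between them. Pseudogene copies of Hspe1, Hspd1 and Hspa8 leave the same doubt about theirs.

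**Figure D1:**
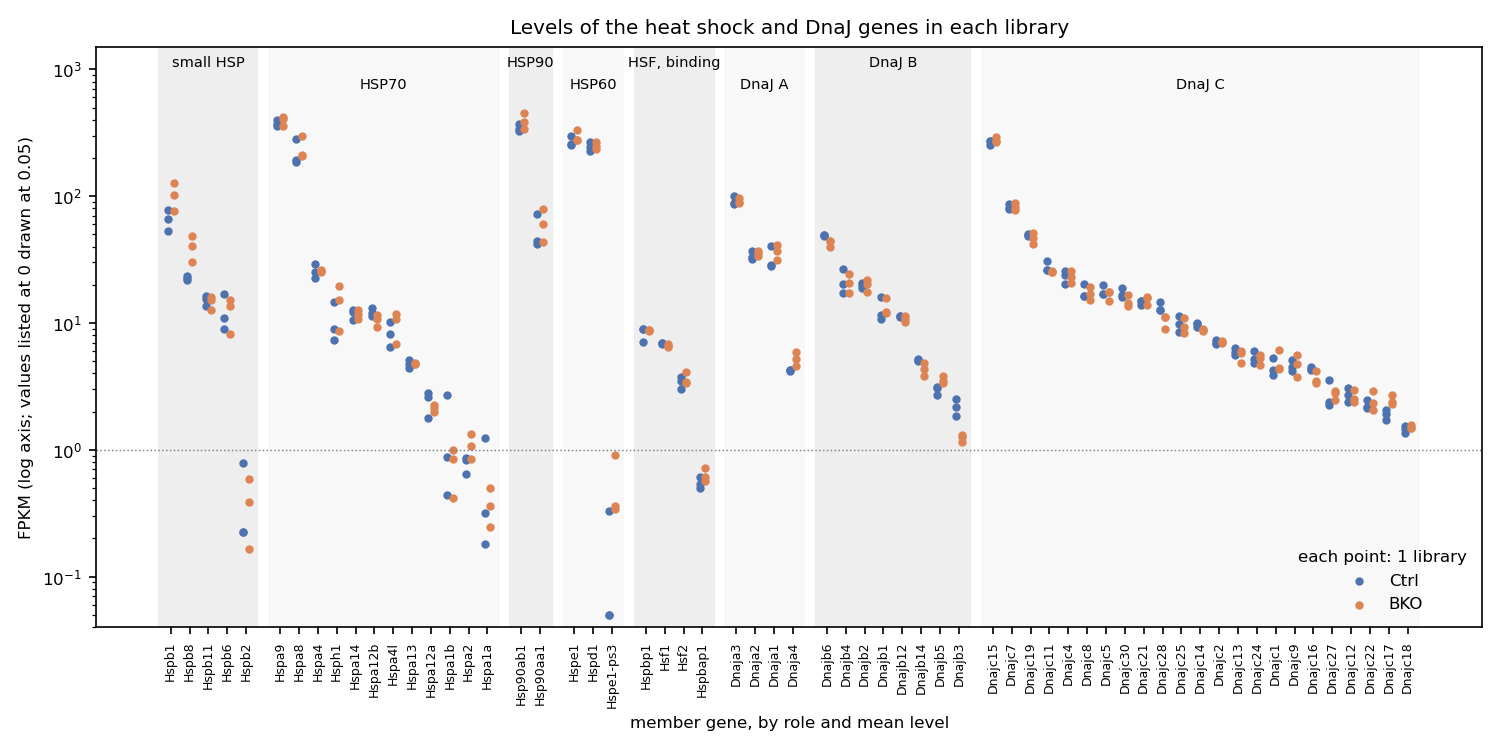
FPKM (log axis) of each of the 61 genes in each library, grouped by family and ordered by mean level; each point is 1 library, blue for Ctrl and orange for BKO, the dotted line marks 1 FPKM, and values listed at 0 are drawn at 0.05. Hspa9, Hsp90ab1, Hspe1, Dnajc15, Hspd1 and Hspa8 lie above 100 FPKM in all 6 libraries, and for most genes the points of the groups overlap.

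Setting BKO beside Ctrl addresses which chaperone transcripts differ after the loss of Bscl2. No heat shock or DnaJ gene passed the test over all genes, and their median difference lay close to that of all tested genes. Genes lower in BKO without overlap took a larger share than among all tested genes, a contrast that was not tested. Of the 56 tested, 0 were called higher and 0 lower (limma, adjusted p under 0.05 by Benjamini-Hochberg across 11397 genes), where 0.158% of all tested genes were called higher and 0.00877% lower. At an unadjusted p below 0.05, 4 were higher (7.14%, against 6.63% of all tested genes) and 3 lower (5.36%, against 3.52%). The groups did not overlap in 4 genes higher in BKO (7.14%, against 9.06% of all tested genes) and in 8 lower (14.3%, against 6.82%). The median log2 difference, BKO minus Ctrl, was 0.00709 over the 56 genes and 0.00563 over all tested genes. A positive difference was found in 31 and a negative one in 25, a share of 55.4% positive against 51.6% of all tested genes. That share was 42.9% of the 56 genes with median ratio rescaling and 35.7% with quantile normalization. Both also shifted the median of all tested genes, to -0.00605 and -0.0231, beside medians of -0.00631 and -0.0212 for the 56 genes. The share of all tested genes under these scalings is not given, so only the medians can be compared. An absolute difference above 0.5 on the log2(FPKM + 1) scale was found for 3 genes, Hspb8, Hspb1 and Dnajb3. With 1 library left out, or with library weights, the count of calls was 0 or 1, Hspb8 being the gene called.

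**Figure D2:**
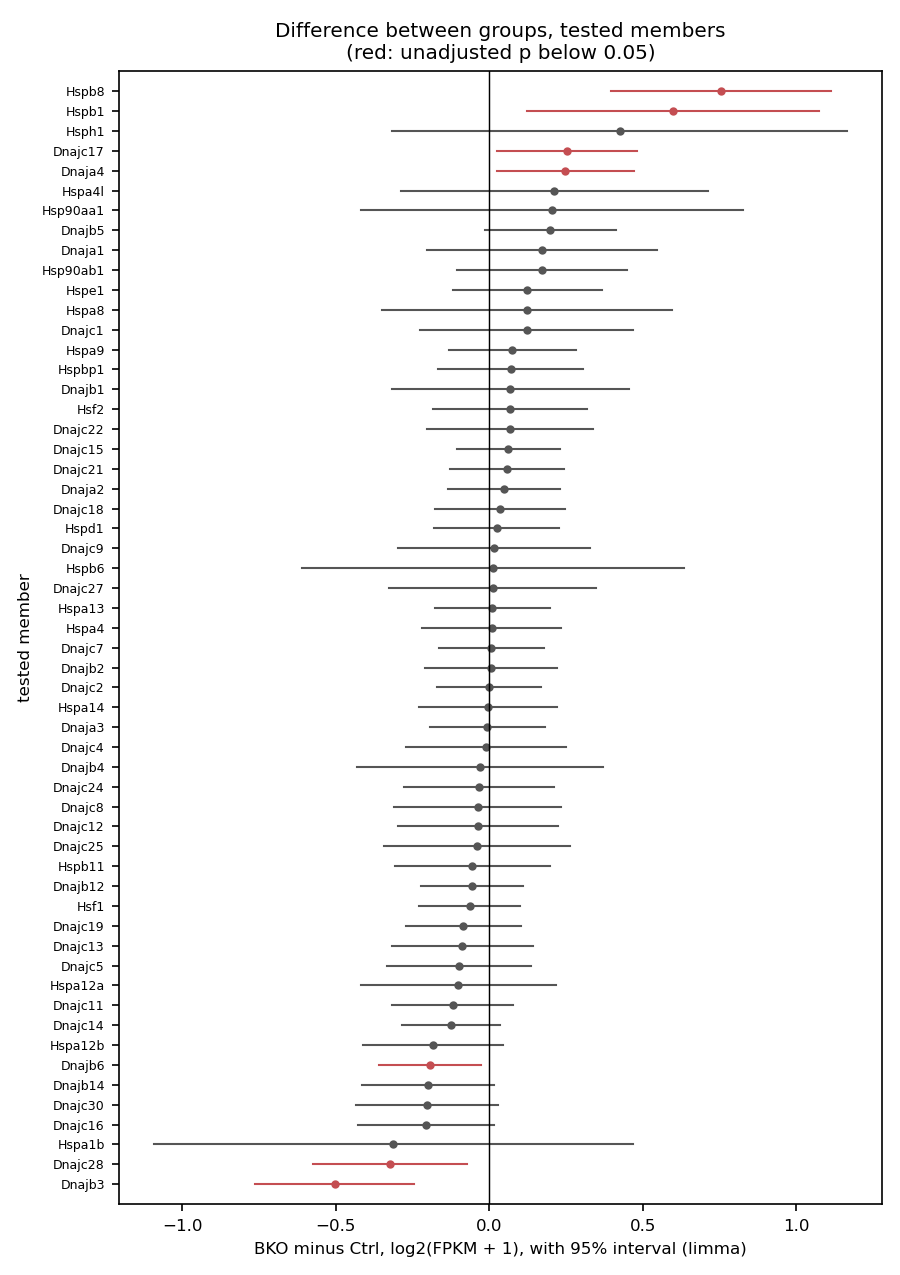
Difference BKO minus Ctrl on the log2(FPKM + 1) scale for the 56 tested genes, with the 95% interval from limma; red marks an unadjusted p below 0.05. The intervals of 7 genes exclude 0, Hspb8, Hspb1, Dnajc17 and Dnaja4 on the higher side and Dnajb6, Dnajc28 and Dnajb3 on the lower side, and the rest cross it.

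Among the small heat shock proteins, 2 of 4 tested genes had an unadjusted p below 0.05 with higher values in BKO, as had 6.63% of all tested genes. Hspb8 encodes a small heat shock protein that works with the co-chaperone Bag3 in chaperone-assisted autophagy. It stood at 22.8, 22.0 and 23.4 FPKM in Ctrl and at 48.5, 40.3 and 30.5 FPKM in BKO. The Ctrl libraries were nearly level, all 3 BKO libraries lay above them, and the BKO libraries spread widely. The means were 22.7 ± 0.710 and 39.7 ± 9.01 FPKM (SD, n = 3 per group), a ratio of 1.75 and a log2 difference of 0.76 (SE 0.153, limma with Benjamini-Hochberg adjusted p = 0.198, range 0.0374 to 0.620 over the alternatives). Without BKO-3, the BKO library with the lowest Hspb8, the log2 difference was 0.93 and the gene was called (adjusted p = 0.0374), as it was with library weights (0.87, adjusted p = 0.0476).

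Hspb1 encodes HSP25, the abundant inducible small heat shock protein. It stood at 53.3, 66.0 and 78.3 FPKM in Ctrl and at 101.6, 75.7 and 126.2 FPKM in BKO. BKO-2 lay below Ctrl-3, so the groups overlapped. The means were 65.9 ± 12.5 and 101.2 ± 25.2 FPKM (SD, n = 3 per group), with a log2 difference of 0.60 (SE 0.203, limma with Benjamini-Hochberg adjusted p = 0.405), which was 0.42 to 0.79 with 1 library left out. Macrophage markers were also higher in BKO, with 14 of 14 tested genes at a positive log2 difference and 2 called higher (Lyz2 and Tyrobp), and fibroblast and preadipocyte markers leaned the same way, with 8 of 9 positive and 0 called (210.2 to 252.5 FPKM summed in Ctrl, 255.0 to 295.9 FPKM in BKO, none at 0). Their part in the values of Hspb8 and Hspb1 was not tested.

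The remaining small heat shock proteins did not separate the groups. Hspb6 (HSP20), a small heat shock protein of muscle and heart, stood at 16.8, 10.98 and 8.96 FPKM in Ctrl and at 13.6, 15.1 and 8.26 FPKM in BKO. Cryab (alpha B crystallin), a small heat shock protein with a symbol outside these families, was picked with its values in view and stood at 17.8, 10.4 and 7.16 FPKM in Ctrl and at 13.6, 15.4 and 9.27 FPKM in BKO. Both were highest in Ctrl-1 within Ctrl and in BKO-2 within BKO, the same libraries in which all 14 tested skeletal muscle markers were highest. So were 7 of 10 smooth muscle and pericyte markers and 2384 of the 11397 tested genes. Within Ctrl, Hspb6 and Cryab were lowest in Ctrl-3. The mean log2(FPKM + 1) level of the skeletal muscle markers was instead lowest in Ctrl-2 (3.055, against 3.731 in Ctrl-3). The part of muscle RNA in Hspb6 and Cryab was not tested. The log2 difference was 0.01 for Hspb6 (95% interval -0.61 to 0.63, limma) and 0.16 for Cryab (SE 0.306). Hspb11, which despite its name encodes a protein of intraflagellar transport, ranged from 12.7 to 16.4 FPKM. Hspb2 lay below 1 FPKM in every library and was not tested, and 30.2% of its exonic bases overlap exons of Cryab on the opposite strand in GENCODE vM21. The TruSeq RNA v2 kit does not mark strand, so reads there cannot be told apart.

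**Figure D3:**
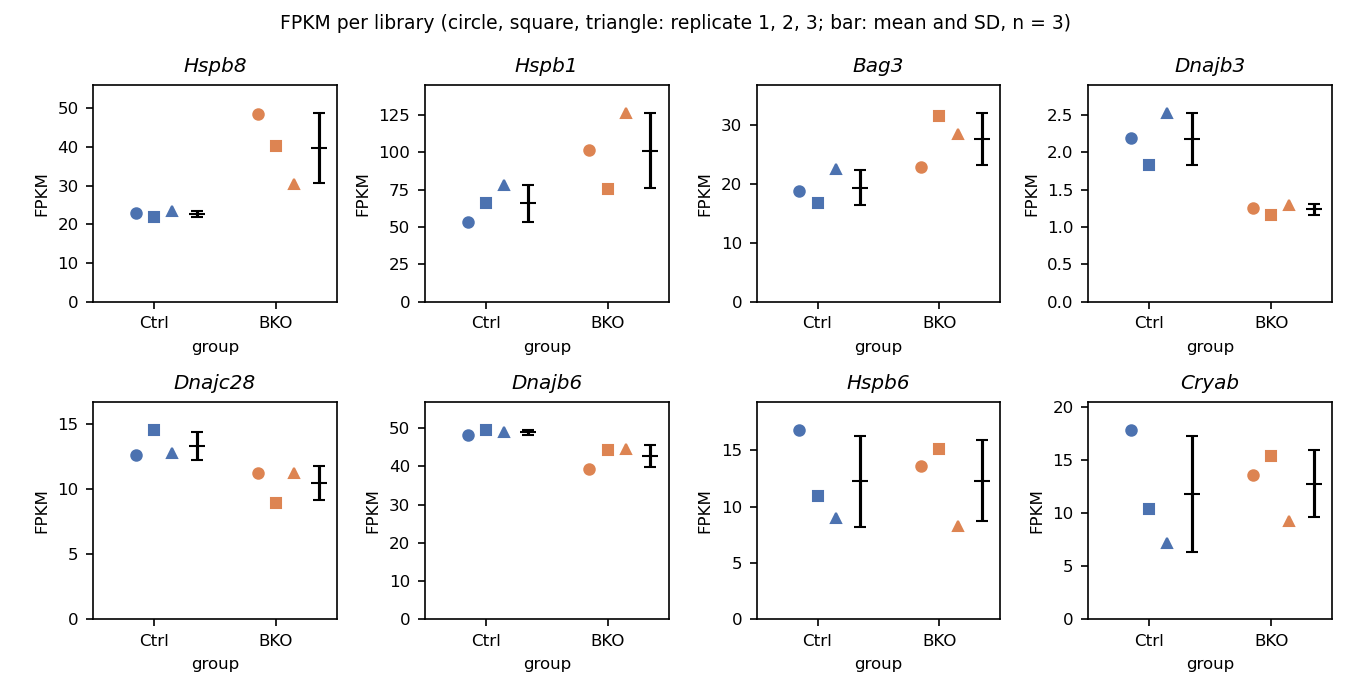
FPKM (axes from 0) of 8 genes by group; circle, square and triangle are replicates 1, 2 and 3, and the bar is the mean with SD (n = 3). Hspb8 and Bag3 lie higher in all BKO libraries, Dnajb3, Dnajc28 and Dnajb6 lie lower in all BKO libraries, Hspb1 overlaps, and Hspb6 and Cryab share their order over the libraries within each group.

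The stress-inducible genes differed more between libraries of 1 group than between the groups. A list of 11 textbook targets of Hsf1 (Hspa1a, Hspa1b, Hsph1, Dnajb1, Dnaja1, Dnajb4, Hsp90aa1, Hspb1, Hspa8, Hspd1 and Hspe1) was described, of which 10 were tested. Sequences of 6 of them with a match to the heat shock element, the motif the factor binds, are shown, and that of Hspb8, which is not on the list, is shown for comparison. Windows of 250 bases before a RefSeq start on GRCm38.p6 were matched by symbol for 46 of the 61 genes. They were searched for GAANNTTC and TTCNNGAA, each of which reads the same on both strands and which can overlap each other. At least 1 match was found in 8 of 9 matched inducible genes (88.9%), in 4 of 37 other matched members (10.8%) and in 14.5% of all 27025 genes of the table. A run of 3 alternating units of GAA and TTC, each pair separated by 2 bases, was found in 2 of the 9 (Hspd1 and Hspe1), in 1 of the 37 (Dnajb6) and in 0.514% of all genes. Of the 9, Dnajb1 had no match in its windows. In the sequences, written 5′ to 3′ on the strand of the named gene, capitals mark these matches.
Hspe1 site (chr1:55088053-55088082, plus strand, between the starts of Hspd1 and Hspe1 and inside the windows of both): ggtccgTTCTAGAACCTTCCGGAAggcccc
Hsph1 site (chr5:149636354-149636377, minus strand): tagaatctTTCTCGAAggctcgag
Dnajb4 site (chr3:152193846-152193867, minus strand): gttcgctgTTCTAGAAagtaca
Dnaja1 site (chr4:40722336-40722359, plus strand): agcctctaGAAAATTCtacgaggc
Hspa1a promoter (chr17:34972157-34972406, minus strand): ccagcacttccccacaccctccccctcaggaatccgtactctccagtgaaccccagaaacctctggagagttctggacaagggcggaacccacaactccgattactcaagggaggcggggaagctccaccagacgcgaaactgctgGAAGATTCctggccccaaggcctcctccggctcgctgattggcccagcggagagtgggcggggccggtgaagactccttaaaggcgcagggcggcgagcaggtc
Hspb1 promoter (chr5:135887669-135887918, plus strand): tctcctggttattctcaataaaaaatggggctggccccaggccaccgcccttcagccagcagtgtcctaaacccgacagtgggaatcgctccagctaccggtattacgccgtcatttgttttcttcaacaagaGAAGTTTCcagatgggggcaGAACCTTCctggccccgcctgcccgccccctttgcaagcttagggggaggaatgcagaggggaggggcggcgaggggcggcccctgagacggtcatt
Hspb8 promoter (chr5:116422865-116423114, minus strand): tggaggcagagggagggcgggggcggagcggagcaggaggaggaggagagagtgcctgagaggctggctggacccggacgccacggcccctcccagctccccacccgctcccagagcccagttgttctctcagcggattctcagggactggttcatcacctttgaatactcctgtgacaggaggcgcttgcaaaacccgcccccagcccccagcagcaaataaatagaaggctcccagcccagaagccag

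Hspb1 and Hspb8 had the largest positive differences of the 56 genes, and their windows differ, with 2 matches in that of Hspb1 and 0 in that of Hspb8, which shows only that these letters are not in that window. Across the libraries, all 10 tested inducible genes were highest in Ctrl-3 within Ctrl and in BKO-3 within BKO. This held for 13 of the 46 other tested members (28.3%) and for 13.9% of all tested genes. None of the 4 members off the list with a match in their windows (Dnaja4, Dnajb6, Dnajc27 and Hspb6) was highest in both Ctrl-3 and BKO-3. The list was textbook knowledge, but it was chosen with earlier results of these data known and is not complete. The pattern was noticed in these libraries and was not tested. The mean log2(FPKM + 1) level of the 10 genes was 5.16, 5.15 and 5.71 in Ctrl and 5.41, 5.28 and 5.75 in BKO. Over the 46 other tested members it was 3.76, 3.71 and 3.75 in Ctrl and 3.73, 3.74 and 3.74 in BKO. The mean of the inducible genes was thus highest in Ctrl-3 and BKO-3 by a wide margin, whereas the means of the other members lay close together. None of the 14 tested skeletal muscle, 14 macrophage, 9 fibroblast, 4 white adipocyte or 10 smooth muscle markers were highest in the same 2 libraries. This held for 1 of 12 brown adipocyte and 1 of 10 endothelial markers. Within Ctrl alone, Ctrl-3 was highest for 7 of the 12 brown adipocyte markers and for 3350 of the 11397 tested genes. Ppargc1a, 1 of the 7, stood at 11.7, 9.62 and 38.7 FPKM in Ctrl. In BKO it stood at 12.8, 38.4 and 28.4 FPKM, highest in BKO-2. Cox8b, another of the 7, rose little in Ctrl-3, at 3010, 3021 and 3102 FPKM in Ctrl. Within BKO, BKO-3 was highest for 2 of the 12 brown adipocyte markers and for 4116 of the 11397 tested genes.

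Of the 10 tested inducible genes, Hspa1b, Hsph1, Hsp90aa1, Hspb1 and Hspa8 had the widest spread within groups on the log2(FPKM + 1) scale. Hsph1, an HSP110 protein that exchanges the nucleotide of HSP70, stood at 7.39, 9.03 and 14.6 FPKM in Ctrl and at 15.2, 8.59 and 19.5 FPKM in BKO. Hsp90aa1, the inducible HSP90, stood at 41.9, 44.5 and 72.8 FPKM in Ctrl and at 60.3, 43.6 and 79.7 FPKM in BKO. In both, Ctrl-3, BKO-1 and BKO-3 were high and Ctrl-1, Ctrl-2 and BKO-2 low, so the groups overlapped. The log2 difference was 0.42 for Hsph1 (95% interval -0.32 to 1.17, limma with Benjamini-Hochberg adjusted p = 0.696) and 0.20 for Hsp90aa1 (-0.42 to 0.83, adjusted p = 0.848). The within-group SD on the log2(FPKM + 1) scale was 0.513 for Hsph1 and 0.429 for Hsp90aa1, larger than that of 97.8% and 96.9% of tested genes. Over the 10 inducible genes its median was 0.293, against 0.126 over all tested genes.

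Hspa8 and the J proteins that serve it were also highest in Ctrl-3 and BKO-3, with smaller swings. BKO-1, high for Hsph1 and Hsp90aa1, was the lowest BKO library for Hspa8, Dnajb1 and Dnajb4, but not for Dnaja1. Hspa8 stood at 191, 185 and 285 FPKM in Ctrl and at 208, 210.0 and 297 FPKM in BKO. Dnajb1 (HSP40), the main inducible J protein, stood at 11.6, 10.7 and 16.1 FPKM in Ctrl and at 12.1, 12.2 and 15.8 FPKM in BKO. Dnaja1, a J protein of the cytosol, stood at 28.6, 28.4 and 40.8 FPKM in Ctrl and at 37.3, 31.2 and 41.1 FPKM in BKO. In each of the 3, Ctrl-3 and BKO-3 were close to each other and above the other libraries. Dnajb4 ranged from 17.3 to 26.6 FPKM with Ctrl-3 and BKO-3 highest. Hspa1b, the inducible HSP70, stood at 0.883, 0.443 and 2.70 FPKM in Ctrl and at 0.419, 0.847 and 1.004 FPKM in BKO. Hspa1a, which was not tested, stood at 0.316, 0.181 and 1.23 FPKM in Ctrl and at 0.245, 0.364 and 0.496 FPKM in BKO. Of the exonic bases of Hspa1a, 19.0% overlap Gm20481 on the opposite strand. The strictly inducible copies thus stayed low in every library, and their highest value was in Ctrl-3.

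**Figure D4:**
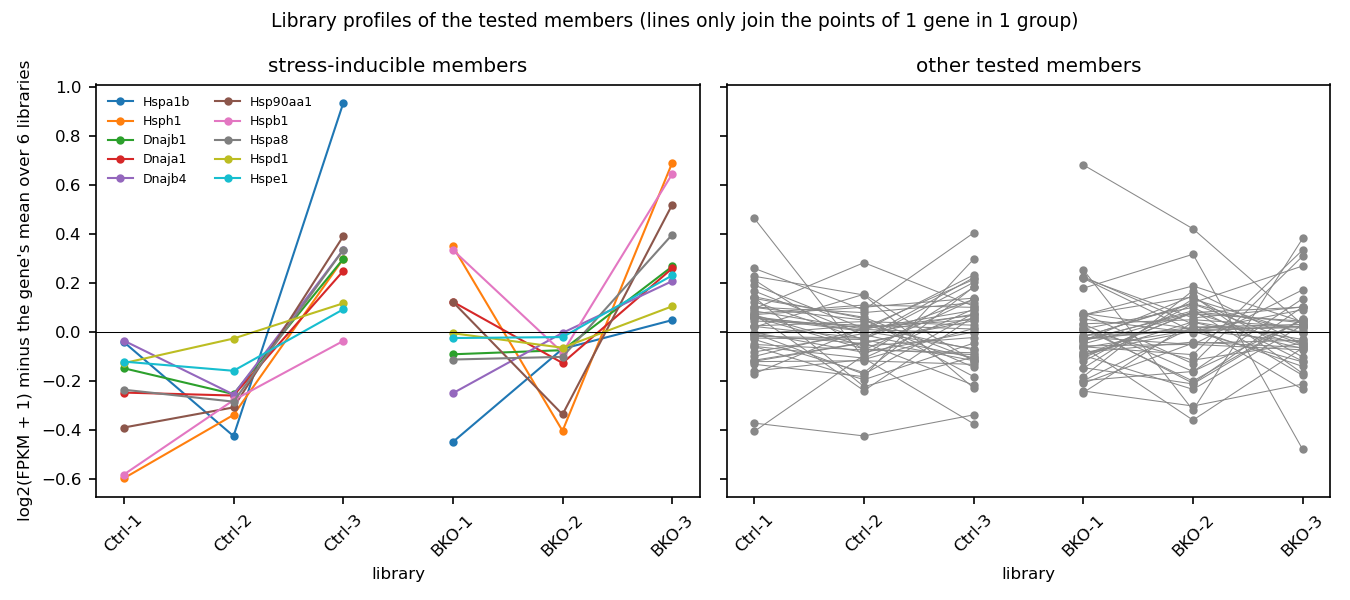
log2(FPKM + 1) of each tested gene minus its mean over the 6 libraries, for the 10 stress-inducible genes (left, coloured by gene) and the 46 other tested genes (right, grey); lines only join points of 1 gene within 1 group. All 10 inducible genes peak in Ctrl-3 within Ctrl and in BKO-3 within BKO, and 13 of the 46 other genes do.

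With these libraries in the comparison, the inducible list had a median log2 difference of 0.12, with 8 genes positive and 2 negative and 0 called (limma). The median was 0.28 with 10 of 10 positive without Ctrl-3, and -0.01 with 4 positive and 6 negative without BKO-3. Without Ctrl-1 or Ctrl-2 it was 0.05 in each case, and it was 0.06 with quantile normalization. The direction of Hspa8 and Hsp90aa1 also turned without BKO-3, at -0.0453 and -0.00445 against 0.12 and 0.20 with all libraries, and that of Hspa1b turned without Ctrl-3, at 0.08 against -0.31.

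The groups overlapped in all tested HSP70, HSP90 and chaperonin genes. Among all tested genes, 9.06% stood apart with BKO higher and 6.82% with BKO lower. None of 10 tested HSP70 and HSP110 genes, with Hspa8, Hsph1 and Hspa1b among them, had an unadjusted p below 0.05. Of all tested genes, 6.63% had one with BKO higher and 3.52% with BKO lower. The median log2 difference of the 10 was 0.01, with a range of -0.31 (Hspa1b) to 0.42 (Hsph1). Hspa9 had means of 375 ± 21.1 and 395 ± 34.1 FPKM (SD, n = 3 per group), with a log2 difference of 0.07 (95% interval -0.13 to 0.28, limma). Hspd1 had a log2 difference of 0.02 (-0.18 to 0.23) and its partner Hspe1 one of 0.12 (-0.12 to 0.37). Hsp90ab1 had a log2 difference of 0.17 (-0.11 to 0.45). Those intervals leave room for changes of moderate size. Hspa4, an HSP110 protein, ranged from 22.7 to 29.2 FPKM. Hspa4l, its stress-inducible relative, stood at 6.41, 8.20 and 10.1 FPKM in Ctrl and at 10.7, 6.87 and 11.8 FPKM in BKO, with the same 3 high libraries as Hsph1. Its log2 difference was 0.21 (95% interval -0.29 to 0.71, limma). Hspa13 ranged from 4.46 to 5.07 FPKM and Hspa14, a ribosome-associated HSP70, from 10.5 to 12.6 FPKM. The atypical HSP70 proteins Hspa12a and Hspa12b, the latter known from endothelium, ranged from 1.77 to 2.80 and from 9.38 to 13.1 FPKM. Hspa12b had a log2 difference of -0.18 (95% interval -0.41 to 0.04, limma).

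The J proteins, 35 genes that were all tested, had a median log2 difference of -0.01. At an unadjusted p below 0.05, 2 were higher (5.71%, against 6.63% of all tested genes) and 3 lower (8.57%, against 3.52%). Groups stood apart without overlap in 10 genes, 3 with BKO higher (8.57%, against 9.06% of all tested genes) and 7 with BKO lower (20.0%, against 6.82%). Dnajb3, a J protein known mainly from testis, stood at 2.19, 1.83 and 2.52 FPKM in Ctrl and at 1.25, 1.16 and 1.30 FPKM in BKO. Each BKO library lay below every Ctrl library. The means were 2.18 ± 0.346 and 1.24 ± 0.0708 FPKM (SD, n = 3 per group), with a log2 difference of -0.50 (SE 0.111, limma with Benjamini-Hochberg adjusted p = 0.214, range 0.127 to 0.540 over the alternatives). In GENCODE vM21 the gene lies on the opposite strand inside the Ugt1a cluster and shares no exonic base with it. Ugt1a6a of that cluster stood the other way, at 1.70, 0.810 and 0.589 FPKM in Ctrl and at 3.77, 5.56 and 2.33 FPKM in BKO.

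Dnajb6, a J protein that suppresses aggregation of polyglutamine proteins, was the most abundant type B J protein. It stood at 48.3, 49.4 and 49.1 FPKM in Ctrl and at 39.4, 44.3 and 44.6 FPKM in BKO. The Ctrl libraries were tight and all 3 BKO libraries lay below them. The log2 difference was -0.19 (SE 0.0708, limma with Benjamini-Hochberg adjusted p = 0.431). Dnajb14, a J protein of the ER membrane, stood at 5.13, 5.03 and 5.202 FPKM in Ctrl and at 4.34, 3.85 and 4.82 FPKM in BKO, with a log2 difference of -0.20 (adjusted p = 0.516), and its groups did not overlap either. Its relative Dnajb12 ranged from 10.3 to 11.4 FPKM with overlapping groups. Dnajb5 stood at 3.08, 2.71 and 3.12 FPKM in Ctrl and at 3.46, 3.84 and 3.37 FPKM in BKO, all BKO libraries above Ctrl, with a log2 difference of 0.20 (limma adjusted p = 0.515). Dnajb2, a J protein known from neurons, ranged from 17.7 to 21.9 FPKM.

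Of the type A J proteins, Dnaja4 stood at 4.24, 4.25 and 4.197 FPKM in Ctrl and at 4.62, 5.19 and 5.87 FPKM in BKO. The Ctrl values were within a narrow band and the BKO values all lay above it. The log2 difference was 0.25 (SE 0.0952, limma with Benjamini-Hochberg adjusted p = 0.441). In GENCODE vM21, 44.1% of its exonic bases overlap exons of Wdr61 on the opposite strand, and reads there cannot be told apart without strand. Wdr61 averaged 32.3 ± 1.63 FPKM in Ctrl and 33.3 ± 1.603 FPKM in BKO (SD, n = 3). Dnaja2, a J protein of the cytosol, ranged from 32.2 to 37.2 FPKM and Dnaja3, that of the mitochondrial matrix, from 86.8 to 100.3 FPKM, with log2 differences of 0.05 (95% interval -0.14 to 0.23, limma) and -0.01 (-0.19 to 0.18).

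The mitochondrial chaperones overlapped between the groups in their summed level. Their 9 genes, which include Hspa9, Hspd1 and Hspe1, had a median log2 difference of -0.01, with 4 positive and 5 negative. Their sum was 1288 to 1450 FPKM in Ctrl and 1383 to 1430 FPKM in BKO, carried mainly by Hspa9, Hspe1, Dnajc15 and Hspd1. Of the 9, 2 were lower in BKO without overlap (22.2%, against 6.82% of all tested genes). An unadjusted p below 0.05 was found for 1 lower (11.1%, against 3.52%). Dnajc15 stood at 253, 273 and 270.5 FPKM in Ctrl and at 268, 294 and 270.6 FPKM in BKO, and its log2 difference was 0.06 (95% interval -0.11 to 0.23, limma). Dnajc19, its relative in the import motor, ranged from 42.3 to 51.0 FPKM. The lowest BKO values relative to Ctrl were those of Dnajc28, which stood at 12.6, 14.5 and 12.7 FPKM in Ctrl and at 11.2, 8.93 and 11.2 FPKM in BKO. All 3 BKO libraries lay below Ctrl, with a log2 difference of -0.32 (SE 0.107, limma with Benjamini-Hochberg adjusted p = 0.387). Dnajc11, a J protein linked to the cristae organizing complex, stood at 26.1, 26.0 and 31.0 FPKM in Ctrl and at 25.4, 25.5 and 25.1 FPKM in BKO, without overlap but with narrow gaps. Dnajc30 stood at 16.7, 16.0 and 18.9 FPKM in Ctrl and at 14.3, 13.6 and 16.6 FPKM in BKO, where BKO-3 reached into the Ctrl range. In GENCODE vM21, 26.2% of the exonic bases of Dnajc30 overlap Bud23 on the opposite strand.

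The remaining type C J proteins serve varied compartments, and most were level. Dnajc17, a J protein of the nucleus linked to splicing, stood at 1.91, 2.07 and 1.72 FPKM in Ctrl and at 2.68, 2.29 and 2.39 FPKM in BKO. All BKO libraries lay above Ctrl, with a log2 difference of 0.25 (SE 0.0970, limma with Benjamini-Hochberg adjusted p = 0.440), and 8.26% of its exonic bases overlap Zfyve19 on the opposite strand. Dnajc16, a J protein of the ER, stood at 4.24, 4.35 and 4.49 FPKM in Ctrl and at 3.34, 3.46 and 4.15 FPKM in BKO, with a log2 difference of -0.21 (adjusted p = 0.515). Dnajc14 stood at 9.90, 9.36 and 9.92 FPKM in Ctrl and at 8.69, 8.98 and 8.83 FPKM in BKO, and 17.0% of its exonic bases overlap Ormdl2 on the opposite strand. In both genes all BKO libraries lay below Ctrl. Dnajc7, which has tetratricopeptide repeats and binds HSP70 and HSP90, was the second most abundant of this type at 77.6 to 87.8 FPKM, with a log2 difference of 0.01 (95% interval -0.16 to 0.18). Dnajc5 (cysteine string protein of secretory vesicles) ranged from 14.8 to 19.9 FPKM, Dnajc13, which acts on endosomes, from 4.87 to 6.40 FPKM, Dnajc8, a splicing factor, from 15.3 to 20.3 FPKM and Dnajc2, a ribosome-associated J protein, from 6.80 to 7.38 FPKM. The other 10 genes of this type (Dnajc1, Dnajc4, Dnajc9, Dnajc12, Dnajc18, Dnajc21, Dnajc22, Dnajc24, Dnajc25 and Dnajc27) overlapped between the groups. Their means over the libraries ran from 1.49 FPKM for Dnajc18 to 23.2 FPKM for Dnajc4, and their log2 differences from -0.04 for Dnajc25 to 0.12 for Dnajc1.

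The transcription factors were low and steady. Hsf1 stood at 6.88, 6.98 and 6.90 FPKM in Ctrl and at 6.41, 6.79 and 6.53 FPKM in BKO. Its BKO libraries all lay below Ctrl by a narrow margin, with a log2 difference of -0.06 (95% interval -0.23 to 0.10, limma with Benjamini-Hochberg adjusted p = 0.815). Hsf2, a relative that can form mixed trimers with Hsf1, stood at 3.504, 3.01 and 3.77 FPKM in Ctrl and at 3.46, 3.36 and 4.10 FPKM in BKO, with a log2 difference of 0.07 (-0.18 to 0.32). The transcript of Hsf1 was not among those highest in Ctrl-3 and BKO-3, whereas that of Hsf2 was. Hspbp1, a nucleotide exchange factor of HSP70, ranged from 7.07 to 9.01 FPKM, with Ctrl-2 alone below the other libraries.

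Of the 5 genes below the minimum for testing, Hspa1a and Hspb2 are given above. Hspa2, an HSP70 known from testis, stood at 0.858, 0.648 and 0.828 FPKM in Ctrl and at 1.067, 1.33 and 0.853 FPKM in BKO. Hspbap1 ranged from 0.502 to 0.723 FPKM. The pseudogene Hspe1-ps3 was listed at 0 in Ctrl-2 and Ctrl-3, at 0.327 FPKM in Ctrl-1 and at 0.360, 0.340 and 0.905 FPKM in BKO. Its reads may come from Hspe1, and a listed 0 may be an estimate that failed, so no ratio is given.

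Other genes of the chaperone network, from a list of 52 of which 51 were listed and 50 tested, also held no called gene. These are co-chaperones of HSP70 and HSP90, the cytosolic chaperonin, prefoldin and mitochondrial partners. Their median log2 difference was 0.04, with 30 positive and 20 negative. An unadjusted p below 0.05 was found for 2 higher (4.0%, against 6.63% of all tested genes) and 1 lower (2.0%, against 3.52%). The groups did not overlap in 3 genes higher in BKO (6.0%, against 9.06% of all tested genes) and in 3 lower (6.0%, against 6.82%). Both shares were below those of all tested genes. Bag3, the partner of Hspb8, stood at 18.8, 16.7 and 22.5 FPKM in Ctrl and at 22.7, 31.5 and 28.4 FPKM in BKO, with the lowest BKO library just above the highest Ctrl library. Its log2 difference was 0.49 (SE 0.144, limma with Benjamini-Hochberg adjusted p = 0.335). Bag3 and Hspb8 were both without overlap between the groups, but their order within BKO differed, BKO-1 being the highest for Hspb8 and the lowest for Bag3.

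Sugt1, a co-chaperone of HSP90, stood at 32.8, 33.3 and 37.1 FPKM in Ctrl and at 39.4, 39.3 and 42.9 FPKM in BKO, with a log2 difference of 0.23 (limma with Benjamini-Hochberg adjusted p = 0.381). Tcp1, a subunit of the cytosolic chaperonin, stood at 91.7, 95.2 and 98.6 FPKM in Ctrl and at 83.7, 81.3 and 85.5 FPKM in BKO, with a log2 difference of -0.19 (adjusted p = 0.387). Neither overlapped between the groups. Of the exonic bases of Tcp1, 11.4% overlap Acat3 on the opposite strand. Stub1 (CHIP), the ubiquitin ligase that marks clients of HSP70, stood at 26.0, 25.1 and 24.5 FPKM in Ctrl and at 27.5, 28.6 and 26.4 FPKM in BKO (log2 difference 0.12, adjusted p = 0.589). Bag4 and Serpinh1, the collagen chaperone of the ER, had log2 differences of -0.26 (adjusted p = 0.526) and 0.18 (adjusted p = 0.587) with overlapping groups. In this list 16 of 50 tested genes (32.0%) were highest in both Ctrl-3 and BKO-3.

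The 6 ER members of these families, which were left out above, are given beside them, and none was called. Hsp90b1 stood at 63.6, 58.0 and 65.8 FPKM in Ctrl and at 91.5, 90.8 and 78.6 FPKM in BKO, without overlap (log2 difference 0.47, limma with Benjamini-Hochberg adjusted p = 0.170). Dnajc3 did not overlap either, with a log2 difference of 0.20 (adjusted p = 0.450). Genes higher in BKO without overlap were thus 2 of 6 (33.3%, against 9.06% of all tested genes). The groups overlapped in Hspa5 (0.31), Dnajb11 (0.24), Dnajc10 (0.02) and Dnajb9 (-0.08). The median log2 difference of the 6 ER genes was 0.22, and that of the 56 tested genes described here was 0.00709. The difference between these medians was not tested.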

How the data were processed

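RNA from brown adipose tissue was sequenced in 6 libraries, 3 Ctrl and 3 BKO, extracted with Trizol and prepared with a TruSeq RNA kit, per the labels' protocols. The authors deposited FPKM for each gene, scaled by them to transcript length and to library size. CASAVA 1.8, TopHat2 2.0.12, Cufflinks 2.2.1 and build NCBIM37 are named per the submitters' processing notes, without settings or annotation. The sample descriptions name the Ctrl libraries MT and the BKO libraries WT, and columns were assigned by those names.

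Values were transformed as log2(FPKM + 1), which understates changes of low genes. For the 11397 genes averaging 1 FPKM or more, limma 3.58.1 (R 4.3.3, intensity trend, no covariate) was used with Benjamini-Hochberg adjustment at 0.05. Count models do not apply to FPKM. Intervals are 95% intervals from limma. The steps were tested on simulated data. Promoter windows were taken from RefSeq (GRCm38.p6) and overlaps from GENCODE vM21, a different build from the authors'.

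The members and lists were chosen with earlier results of these data known. Named genes were Bscl2, the 10 members with the lowest p, the 6 with the largest change, the 4 with the widest range, the 2 most abundant of each family, a fixed set of 12, and the 6 network genes with the lowest p; other members are given as ranges or because their groups did not overlap. Lists for brown and white adipocytes, endothelium, smooth muscle, fibroblasts, macrophages and muscle were compared. Summed FPKM of the white adipocyte list was 35.5 to 47.0 in Ctrl and 37.8 to 43.4 in BKO, of the endothelial list 281.9 to 337.5 and 317.7 to 336.8, and of the smooth muscle list 207.6 to 234.1 and 213.9 to 231.7. As alternatives, the pseudocount, the filter, the scaling and the empirical Bayes step were varied, and others used a muscle score, a replicate block, library weights or 1 library fewer.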

Additional observations from a re-analysis of the deposited data

How the results depend on the processing

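Under 17 alternatives, the 34 named and tested genes gave 570 values, of which 544 kept direction and side of the threshold, 2 gained a call (both Hspb8) and 24 changed sign. The count of heat shock and DnaJ genes called was 0 with all libraries, 1 with library weights and 0 to 1 with 1 library left out, 1 being the count without BKO-3. No other network gene was called under any of them. Over all tested genes 18 were called higher and 1 lower; higher counts were 11 without a filter, 9 with a mean of at least 5 FPKM, 32 with robust empirical Bayes, 48 with library weights, 9 with the muscle score and 5 to 30 with 1 library left out (leaving out BKO-1 gave 5, Ctrl-2 gave 8, Ctrl-3 and BKO-2 gave 11 each, and BKO-3 gave 30). Lower counts were 6 with library weights, 2 with the replicate block and 1 to 3 with 1 library left out (3 without Ctrl-1, and 2 each without Ctrl-3, BKO-2 or BKO-3). The network list's median log2 difference was 0.00598 to 0.0493 with 1 library left out, the lowest without BKO-2, against 0.0385 with all. The cause of these moves was not tested.

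Over all tested genes, deviations of same-numbered libraries were weakly correlated (r = 0.196, -0.104 and -0.100 for numbers 1, 2 and 3). Ctrl-1 went best with BKO-1, and Ctrl-2 and Ctrl-3 each went best with another number (r = 0.148 and 0.219). With 3 libraries per group, such values cannot tell whether the numbers pair the samples, and the main fit did not pair them. Over the tested members alone, r was 0.157, 0.0433 and 0.650, across genes that are not independent. Among them, Ctrl-1 went better with BKO-2 (r = 0.606) and Ctrl-2 with BKO-1 (r = 0.395) than with the same number. With the number as a replicate block, 23 genes were called higher and 2 lower, and 0 of the members.

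Sign changes were all in genes with an adjusted p of at least 0.808 with all libraries. With library weights the log2 difference was 0.0396 for Dnaja3 and 0.0530 for Dnajb4. With median ratio rescaling it was -0.00695 for Dnajc7, and with quantile normalization -0.0202 for Dnajc7, -0.0282 for Hspa9 and -0.00264 for Hspd1. With 1 library left out it ranged from -0.0477 to 0.0588 for Dnaja3, -0.0482 to 0.235 for Dnajb1, -0.165 to 0.130 for Dnajb4, -0.0374 to 0.0507 for Dnajc7, -0.00219 to 0.122 for Hsf2, -0.00445 to 0.451 for Hsp90aa1, -0.603 to 0.0765 for Hspa1b, -0.0453 to 0.321 for Hspa8, -0.0326 to 0.123 for Hspbp1 and -0.0333 to 0.0889 for Hspd1. The depth of the libraries is unknown, and 3 libraries per group limit what could be detected.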
